A study of Mus musculus with 6 samples.

Results

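The genes described here encode the proteins of the cytosolic and mitochondrial ribosomes. They were chosen by symbol alone, as Rpl or Rps followed by a digit (Rps6k kinases left out), Rplp0 to Rplp2, Rpsa, and Mrpl or Mrps followed by a digit. The rule itself uses no measured value, but it was set with earlier results of these data known. The rule found 170 genes, read by 257 array probes, among the 22911 named genes of the array. Of these, 92 were cytosolic and 78 mitochondrial. The cytosolic set held 46 genes of the large 60S subunit, 31 of the small 40S subunit and 15 paralogs, retrogenes, pseudogenes or genes that share only the spelling. The mitochondrial set was split by spelling alone into 49 Mrpl genes, labelled 39S, and 29 Mrps genes, labelled 28S. Whether each protein sits in the subunit of its label was not checked.

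Total RNA from a mouse glioblastoma stem cell line was measured on 6 single-colour Agilent arrays. The tumours behind the line had been induced in mice with an SB transposon, and the cells grew as neurospheres without serum, in medium with B27, N2, EGF and bFGF. The 3 knockdown arrays came from cells stably carrying a lentiviral short hairpin against Ggct, and the 3 control arrays from cells stably carrying a lentiviral non-target hairpin. Each of 3 dates in the sample titles was shared by 1 knockdown and 1 control array, which form pairs 1, 2 and 3 here. Both groups were the same line and each group carried 1 hairpin, so loss of Ggct and other effects of that hairpin cannot be told apart. The labels do not say whether the samples of a group were separate cultures, so the p-values rest on the spread among the 6 samples, which may be partly technical. The study compared the groups to see how suppressing Ggct changes gene expression. Ggct encodes γ-glutamylcyclotransferase, an enzyme of the γ-glutamyl cycle of glutathione turnover.

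A ribosome is built from ribosomal RNA and many different proteins, each present once or a few times per particle, so cells make these proteins in matched amounts. The messenger RNAs of cytosolic ribosomal proteins typically begin with a C followed by a run of pyrimidines, the 5′ terminal oligopyrimidine tract, through which mTOR and LARP1 control how much they are translated. That control acts on translation, which an array of RNA levels does not read. Mitochondrial ribosomal proteins are encoded in the nucleus, translated in the cytosol and imported, and their ribosome makes the respiratory chain subunits encoded in mitochondrial DNA.

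The annotated start bases show that difference between the sets, and the bases around them show it less. RefSeq start regions (assembly GRCm38.p6, from 250 bases before to 50 bases from the start) matched 135 of the 166 tested members by symbol. They covered 57 of the 77 genes of the 60S and 40S subunits in 67 windows, and 69 mitochondrial genes in 75 windows. A tract was counted when the start base was a C followed without a break by at least 4 more C or T on the gene's strand. It stood in 13 windows of the cytosolic subunit genes (19.4%) and in 0 mitochondrial windows, against 2.51% of all 32851 windows. When the tract could begin anywhere within 10 bases of the annotated start, the shares were 53.7% for the cytosolic subunit genes, 41.3% for the mitochondrial genes and 30.7% for all windows. The looser count raised the share of all windows too, and the sets lay closer together in it. The count at the start base rests on where the annotation puts that base, which was not tested. The following 6 cytosolic windows were picked, in order of symbol, from those with the tract at the start, so they are examples of it only. The 4 mitochondrial windows, of genes described later, lack it there, as every mitochondrial window did. Each has 30 bases, 5′ to 3′ on the gene's strand, with the start at base 16. Capitals mark the tract or, in the mitochondrial genes, the start base alone, and subunit labels follow the symbols.
Rpl14 (60S), chr9:120571502-120571531, plus strand: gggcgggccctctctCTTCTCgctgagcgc
Rpl15 (60S), chr14:18270972-18271001, minus strand: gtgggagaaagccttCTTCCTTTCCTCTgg
Rpl28 (60S), chr7:4792950-4792979, plus strand: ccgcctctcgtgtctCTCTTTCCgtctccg
Rpl35 (60S), chr2:39005117-39005146, minus strand: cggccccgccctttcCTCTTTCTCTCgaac
Rpl35a (60S), chr16:33056467-33056496, plus strand: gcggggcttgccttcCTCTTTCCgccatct
Rpl38 (60S), chr11:114668565-114668594, plus strand: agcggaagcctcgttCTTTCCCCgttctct
Mrpl12 (39S), chr11:120484622-120484651, plus strand: agctcgcctcctcccGgatagagcgtcgct
Mrps12 (28S), chr7:28741807-28741836, minus strand: tcactaaggaggaacCccggaaggggctgg
Mrps18a (28S), chr17:46110989-46111018, plus strand: agtgcacacgcggtcAggtgcgttccaaga
Mrps18b (28S), chr17:35916426-35916455, minus strand: cattgcggggcgtgtCcttggcccacccta

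Over the whole windows, on both strands, the letters of a pair of known factor sites were counted. CCGGAAG, the core of ETS factor sites, stood in 37.3% of windows of the cytosolic subunit genes and 34.7% of mitochondrial windows, against 8.86% of all windows. AAGATGGC, bound by YY1, stood in 10.4% and 16% of those sets, against 2.75% of all. The first string ends and the second begins with AAG, so matches can overlap, and a match describes the sequence only.

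The hairpin worked in the libraries labelled knockdown. Values are log2 processed signal relative to the array's 75th percentile. Ggct stood at 0.22, 0.91 and 0.70 on the knockdown arrays, against 3.32, 3.72 and 3.70 on the control arrays. The groups lay far apart, and Ggct in knockdown was 12.7% of control (log2 fold change -2.97 ± 0.20 SE, adjusted p = 0.00314 by limma, n = 3 each). The 75th percentile of the spot signal ran from 821.0 to 1201.2 intensity units on knockdown arrays and from 811.7 to 1373.3 on control arrays, and 54.5% to 56.8% of probes were well above background. Of the 10 neural or glioma stem markers, 9 were well above background on all 6 arrays, and Olig2 was so on none. On all 6 arrays were 2 of 6 microglial, 2 of 5 endothelial, 2 of 5 fibroblast or pericyte, 2 of 5 neuronal, 2 of 4 oligodendrocyte and 0 of 3 astrocyte markers.

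Of the 170 genes, 166 were tested, and all 166 were well above background on all 6 arrays. The 4 others, Rpl10l, Rpl39l, Rpl3l and Rps4l, were well above background on 0 arrays. They are paralogs of Rpl10, Rpl39, Rpl3 and Rps4x. Rpl10l and Rpl39l are known from testis and Rpl3l from muscle.

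The messenger RNAs of ribosomal proteins stayed close to their control level when Ggct was knocked down. By limma with Benjamini-Hochberg adjustment over 14151 genes, 0 of 88 cytosolic and 0 of 78 mitochondrial genes passed an adjusted p of 0.05, whereas 7.41% of all genes tested passed. Across all genes 646 were higher (4.57%) and 402 lower (2.84%) in knockdown. With the shared date as a replicate block, 558 genes (3.94%) passed in place of 1048, and again 0 members did. At an unadjusted p under 0.05, 1 cytosolic gene (Rpl37) and 3 mitochondrial genes (Mrpl50, Mrps6 and Mrps21) were found, 4 of 166, against 24.8% of all genes. Other settings of the same tool called 0 members too, and the smallest adjusted p of any member in any of them was 0.0542.

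The intervals behind those calls mostly lay close to no change. The 95% confidence interval of the knockdown over control ratio lay inside 1.5-fold either way for 155 of 166 members, or 93.4%, against 50.2% of all genes. It lay inside 2-fold for 165 of them, against 85.1% of all genes, with Rpl37 the exception. The median standard error was 0.137 for cytosolic and 0.129 for mitochondrial genes, against 0.151 for all genes, so interval widths differed little. The median absolute log2 fold change differed more, at 0.092 for members against 0.200 for all genes. Members were also brighter than most genes. Their median height over the lowest signal called well above background was 13.3 log2 units (cytosolic) and 9.81 (mitochondrial), against 6.61 for all genes. Whether the intervals of other genes as bright lay inside these bounds as often was not tested. The 11 members whose interval reached past 1.5-fold were Rpl37, Rpl22l1 and Rps15a-ps6 among the cytosolic genes. Among the mitochondrial genes they were Mrpl9, Mrpl16, Mrpl34, Mrpl35, Mrpl47, Mrpl50, Mrps6 and Mrps27.

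**Figure D1:**
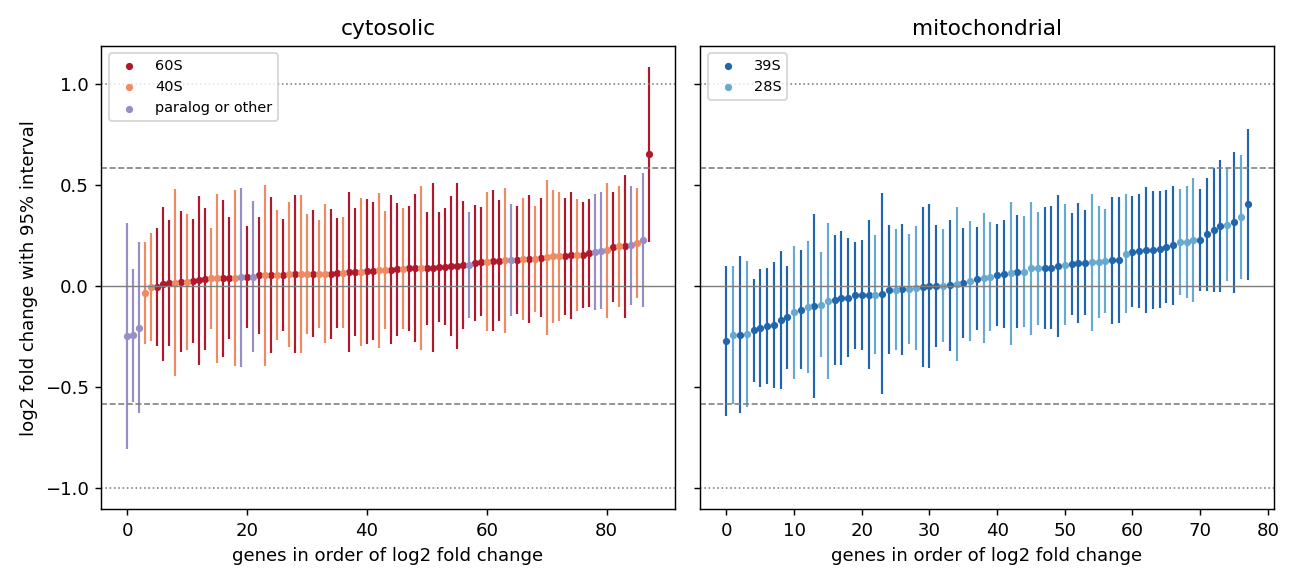
Log2 fold change, knockdown over control, of each tested cytosolic (left) and mitochondrial (right) ribosomal protein gene in rank order, with its 95% confidence interval from limma (3 arrays each); colours mark the subunit, dashed lines 1.5-fold and dotted lines 2-fold either way. Intervals of 155 of the 166 genes stay between the dashed lines, and Rpl37, at the right end of the left panel, alone reaches past 2-fold.

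The middle of the cytosolic set was narrower than that of the mitochondrial set, though its extremes lay further apart. The middle 50% of cytosolic log2 fold changes spanned 0.080 around a median of 0.08, whereas the mitochondrial ones spanned 0.175 around 0.04 and those of all genes spanned 0.401 around 0.02. The extremes were -0.25 and 0.65 among cytosolic genes and -0.27 and 0.41 among mitochondrial genes. Those of the cytosolic set came from the paralog Rpl22l1 and from Rpl37, whose 1 probe was dim. Apart from Rpl37, the 60S and 40S genes ran only from -0.03 (Rps9) to 0.21 (Rps28). Cytosolic log2 fold changes were above 0 in 82 of 88 genes and mitochondrial ones in 47 of 78, against 52.3% of all genes. The cytosolic count fell to 52 of 88 after quantile normalization, to 53 without control 3 and to 40 without pair 3. It was 80 with median scaling, 84 with normexp background correction and 84 with the percentile taken over detected probes. Genes of 1 set share their arrays, so these shares are descriptions and no p is given for them.

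**Figure D2:**
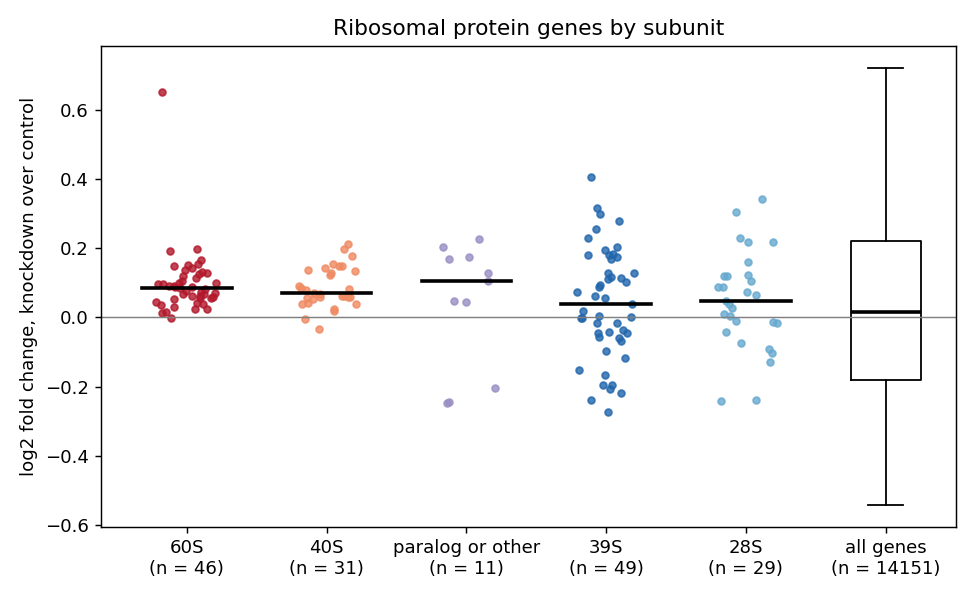
Log2 fold change, knockdown over control, of the 166 tested genes by subunit (points, 1 per gene; horizontal bars, medians), with all 14151 tested genes as a box of quartiles with whiskers from the 5th to the 95th percentile. The 60S and 40S genes lie in a narrow band just above 0 apart from Rpl37 at 0.65, while the 39S and 28S genes lie on both sides of 0.

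The cytosolic genes shared differences between arrays of the same group that were larger than the difference between groups. Each gene's value was set against its own mean over the 6 arrays, and the median of these deviations was taken over the set. For cytosolic genes this was -0.103, 0.126 and 0.113 on knockdown arrays 1, 2 and 3, against -0.085, 0.112 and -0.168 on control arrays 1, 2 and 3. The 2 groups overlapped, with a low array in knockdown and a pair of low arrays in control. Knockdown 1 was the lowest knockdown array for 78 of the 88 cytosolic genes (88.6%, against 35.5% of all genes). Control 2 was the highest control array for 79 of them (89.8%, against 33.2%), and control 3 the lowest control array for 55 (62.5%, against 32.2%). These medians and counts are with percentile scaling, and the order depended on it. After quantile normalization the cytosolic medians were 0.028, -0.006 and 0.020 on the knockdown arrays, against -0.058, -0.009 and 0.018 on the control arrays. Knockdown 1 and control 3 then had the highest medians of their groups.

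With percentile scaling the mitochondrial genes followed another order. Their medians were -0.030, 0.045 and 0.076 on the knockdown arrays, against -0.142, 0.037 and 0.019 on the control arrays. Control 3, low for cytosolic genes, was the lowest control array for 12 of 78 mitochondrial genes (15.4%), and control 1 had the lowest mitochondrial median. Over the control arrays the medians spanned 0.280 for cytosolic, 0.179 for mitochondrial and 0.069 for all genes. Knockdown 1 and control 3, with the lowest cytosolic medians of their groups under this scaling, also had the highest 75th percentile of signal, 1201.2 and 1373.3 intensity units. After quantile normalization the mitochondrial control medians were -0.077, -0.007 and 0.019, in the same order as the cytosolic ones. On the knockdown arrays they were -0.005, 0.038 and 0.049, in another order than the cytosolic ones. Whether the scaling or the cells set the shared shift of the cytosolic genes was not tested.

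Pair by pair, the cytosolic median of knockdown minus control was -0.03 in pair 1, 0.02 in pair 2 and 0.28 in pair 3, and 40, 59 and 83 of 88 genes were above 0. Nearly all genes were above 0 in pair 3, which was not so in pairs 1 and 2. After quantile normalization, which gives every array the same distribution of values, the same medians were 0.09, 0.004 and -0.01. Mitochondrial pair medians were 0.09, -0.001 and 0.06, and 0.05, 0.03 and 0.08 after quantile normalization. Knockdown was higher in all 3 pairs for 28 cytosolic (31.8%) and 27 mitochondrial genes (34.6%), against 26.3% of all genes. It was lower in all 3 pairs for 1 cytosolic (1.14%) and 10 mitochondrial genes (12.8%), against 22.4% of all genes. The cytosolic minus mitochondrial difference of medians varied between pairs with an SD of 0.178, larger than either set's median.

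**Figure D3:**
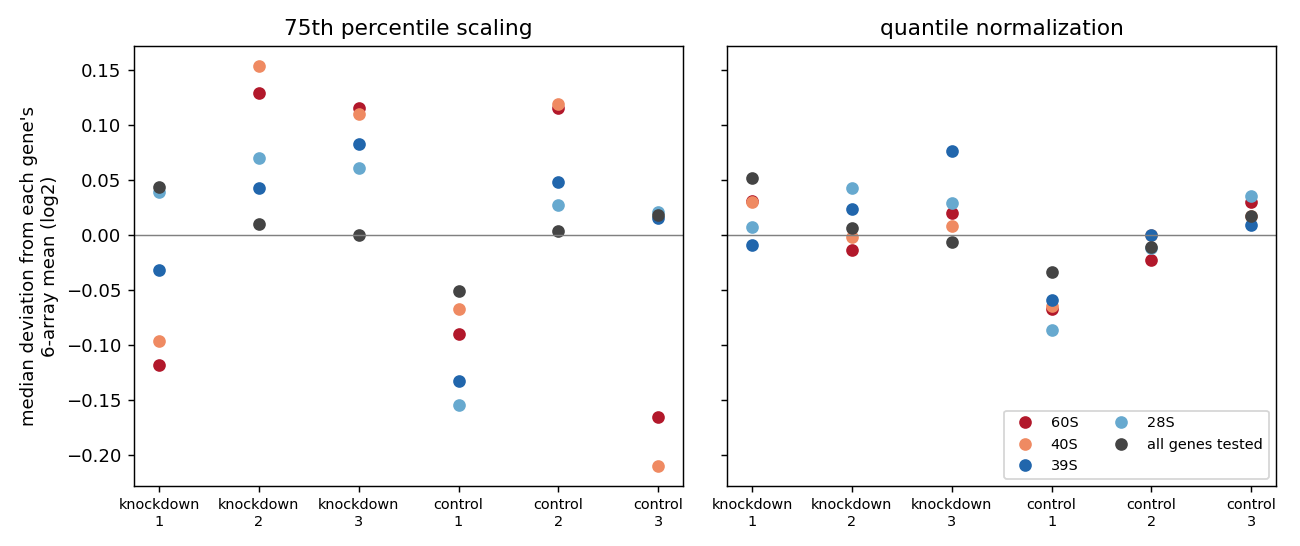
Median deviation (log2) of the genes of each subunit, and of all 14151 tested genes, from each gene's own mean over the 6 arrays, for knockdown arrays 1 to 3 and control arrays 1 to 3, with scaling to the 75th percentile (left) and after quantile normalization (right). With percentile scaling the 60S and 40S points move together and reach below -0.15 on control 3, where the 39S and 28S points stay near 0; after quantile normalization the 60S and 40S points lie within 0.07 of 0 on every array.

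Among the 46 genes of the 60S subunit the median log2 fold change was 0.09, and 45 lay above 0 (29 after quantile normalization). The probe for Rpl37, a zinc-binding protein of the 60S subunit, gave the largest difference of all members. It stood at -1.93, -2.49 and -2.47 in knockdown, against -3.16, -2.89 and -2.80 in control. Every knockdown array lay above every control array, and the log2 fold change was 0.65 ± 0.19 SE with adjusted p = 0.0783, short of the threshold. The pair differences were 1.23, 0.40 and 0.33, so pair 1 held most of it. Rpl37 was read by 1 probe that on its dimmest array stood 1.89 log2 units above the lowest signal called well above background. That level is far below the 60S genes as a set, whose array medians ran from 7.89 to 8.16. Whether the probe reads the Rpl37 messenger RNA well was not tested, so 0.65 describes this probe. Rpl37rt, a retrogene copy of Rpl37, stood at 8.39, 8.93 and 8.79 in knockdown, against 8.77, 8.84 and 8.37 in control. Its log2 fold change was 0.04 ± 0.19 SE. Which transcripts each probe of such near-identical copies binds was not tested, and this holds for ribosomal protein genes in general, whose processed copies are many.

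The next highest 60S gene was Rpl37a, at 8.36, 8.67 and 8.65 in knockdown, against 8.32, 8.58 and 8.19 in control. Its arrays overlapped (log2 fold change 0.20 ± 0.15 SE, adjusted p = 0.477). At the low end Rpl10a, the single 60S gene below 0, had -0.003 ± 0.126 SE and Rpl13 had 0.01 ± 0.16 SE. The groups overlapped in both. All knockdown arrays lay above all control arrays in 5 of 46 genes of this subunit (10.9%), against 17.8% of all genes. They lay wholly below in 0, against 14.6% of all genes. The 5 genes, Rpl7, Rpl9, Rpl17, Rpl21 and Rpl37, are named after their values were seen.

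The stalk proteins Rplp0, Rplp1 and Rplp2, which recruit translation factors to the 60S subunit, had log2 fold changes of 0.13 ± 0.13, 0.11 ± 0.14 and 0.04 ± 0.17 SE. Rplp0, often used to normalise RNA measurements, stood at 8.30, 8.56 and 8.41 in knockdown, against 8.28, 8.43 and 8.18 in control. Its groups overlapped. Rpl5 and Rpl11, which join 5S ribosomal RNA and, when free, bind Mdm2 and restrain it from degrading p53, had 0.13 ± 0.12 and 0.08 ± 0.16 SE. Rpl11 stood at 8.32, 8.64 and 8.60 in knockdown, against 8.40, 8.67 and 8.22 in control, with the knockdown arrays inside the range of the control arrays. Rpl10, which joins late in assembly at the subunit interface, had 0.04 ± 0.15 SE.

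The 31 genes of the 40S subunit had a median of 0.07, with 29 above 0 (17 after quantile normalization). All 31 intervals lay inside 1.5-fold, and the smallest adjusted p was 0.313. Rps28, near the exit of the mRNA channel, was the highest. It stood at 8.23, 8.32 and 8.36 in knockdown, against 7.998, 8.21 and 8.07 in control. These groups did not overlap, yet the log2 fold change of 0.21 ± 0.12 SE missed the threshold by far (adjusted p = 0.313). Rps7 was next at 7.21, 7.16 and 7.20 in knockdown, against 6.79, 7.04 and 7.14 in control (0.20 ± 0.13 SE, adjusted p = 0.402). Its knockdown arrays agreed closely while its control arrays spread over a wider range. Rps21 was the third 40S gene whose groups did not overlap, chosen after its values were seen (0.14 ± 0.11 SE). In all 3 the knockdown arrays lay above the control arrays, which is 9.68% of the subunit, against 17.8% of all genes. The knockdown arrays lay wholly below in 0 genes of the 40S subunit, against 14.6% of all genes.

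The 2 lowest 40S genes and the only ones below 0 were Rps9 and Rps15. Rps9 stood at 7.47, 7.52 and 7.47 in knockdown, against 7.48, 7.58 and 7.49 in control (-0.03 ± 0.11 SE). Rps15, part of the subunit's head, had -0.01 ± 0.11 SE. Rps6, the substrate of the S6 kinases downstream of mTOR, stood at 7.93, 8.05 and 7.98 in knockdown, against 7.83, 8.02 and 7.93 in control. Its groups overlapped and the log2 fold change was 0.06 ± 0.12 SE, within an interval of -0.21 to 0.33. Rpsa, also known as the laminin receptor precursor, had 0.09 ± 0.13 SE, and Rps3, at the mRNA entry and also known in DNA repair, had 0.14 ± 0.13 SE.

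Over all cytosolic genes the knockdown arrays lay wholly above the control arrays in 9 of 88 genes (10.2%) and wholly below in 0, whereas 17.8% and 14.6% of all genes did. The 13 subunit genes with a pyrimidine tract at the annotated start had a median log2 fold change of 0.06, from 0.01 to 0.18. The 44 other subunit genes with a start region had a median of 0.09. Of the genes whose starts are printed, Rpl14 had 0.08 ± 0.15, Rpl15 0.01 ± 0.13, Rpl28 0.05 ± 0.11, Rpl35 0.07 ± 0.17, Rpl35a 0.10 ± 0.12 and Rpl38 0.06 ± 0.17 SE.

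The paralogs and other genes matched by spelling varied more than the subunit genes, with a middle 50% spanning 0.253 over 11 tested genes. Rpl22l1, the paralog that Rpl22 protein is known to repress in mouse cells, was the lowest at 5.39, 6.04 and 6.30 in knockdown, against 5.97, 6.41 and 6.10 in control. Its knockdown arrays spread widely across the control range (log2 fold change -0.25 ± 0.24 SE, adjusted p = 0.587). Rpl22 itself had 0.14 ± 0.13 SE. Rps27l, a p53 target gene, stood at 7.33, 7.41 and 7.48 in knockdown, against 7.18, 7.40 and 7.11 in control. It overlapped by 1 control array (0.18 ± 0.13 SE, adjusted p = 0.439), and its partner Rps27 had the same size of difference, 0.18 ± 0.14 SE.

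The remaining paralog pairs were as close to control. Rpl7 had 0.19 ± 0.12 SE and its relative Rpl7l1 0.11 ± 0.11 SE, and in both the groups did not overlap. Rpl36a had 0.10 ± 0.18 and Rpl36al 0.05 ± 0.16 SE. Rpl39, Rpl3, Rpl10 and Rps4x, whose paralogs were not above background, had 0.09, 0.05, 0.04 and 0.15. Rps19bp1, a binding partner of Rps19 that is no ribosomal protein, was the highest of the lot (0.23 ± 0.14 SE), followed by the pseudogene Rpl34-ps1 (0.20 ± 0.13 SE). Below 0 were Rpl22l1, the retrogene Rps23rg1 (-0.24 ± 0.14 SE) and the pseudogene Rps15a-ps6 (-0.20 ± 0.18 SE, named after its value was seen).

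**Figure D4:**
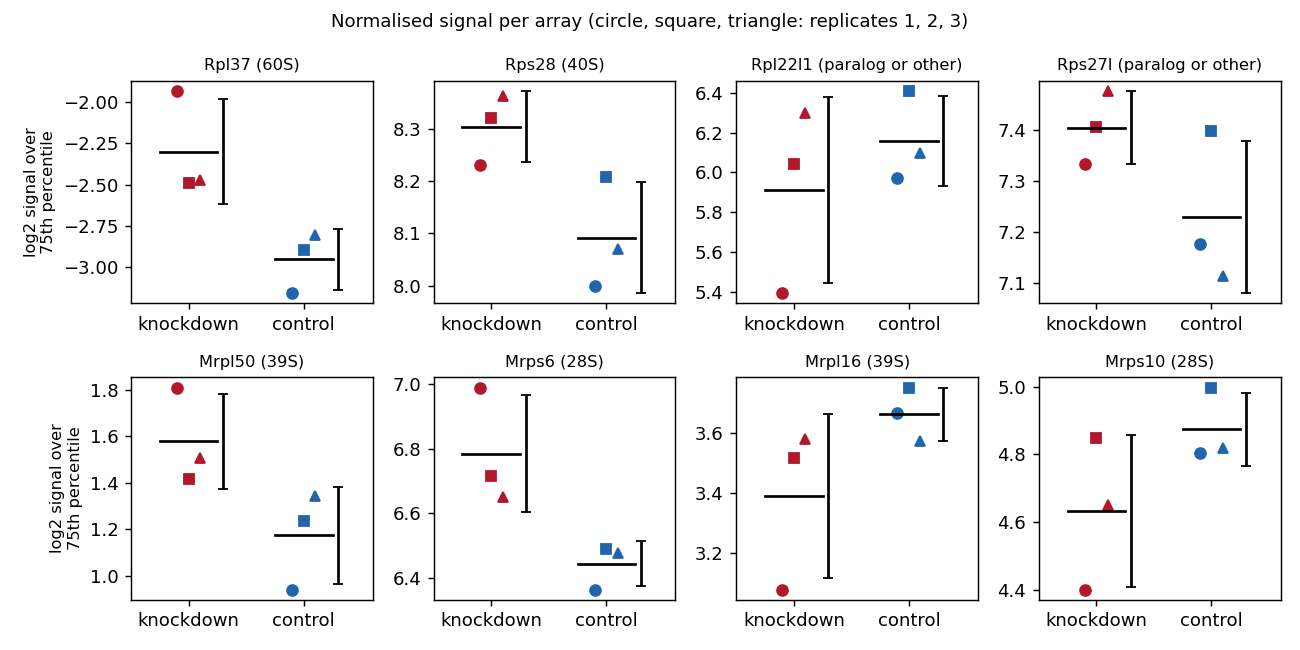
Log2 signal relative to the array's 75th percentile for 8 genes, on knockdown and control arrays (circle, square and triangle for replicates 1, 2 and 3; horizontal lines are means and vertical bars SDs, n = 3). Axes differ between genes and do not start at 0. Knockdown and control do not overlap for Rpl37, Rps28, Mrpl50 and Mrps6, and overlap for Rpl22l1, Rps27l, Mrpl16 and Mrps10.

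The 49 Mrpl genes, labelled 39S, had a median log2 fold change of 0.04, with 28 above 0 and a middle 50% spanning 0.226. Mrpl50 was the highest, at 1.81, 1.42 and 1.51 in knockdown, against 0.94, 1.24 and 1.34 in control. The groups did not overlap, and the log2 fold change of 0.41 ± 0.16 SE had adjusted p = 0.170. More than the other pairs, pair 1 carried it (0.87, against 0.18 and 0.17 in pairs 2 and 3). Mrpl35 stood at -0.77, -1.05 and -0.81 in knockdown, against -1.17, -1.41 and -0.997 in control (0.32 ± 0.15 SE, adjusted p = 0.244). Its groups overlapped only between knockdown 2 and control 3.

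At the low end of the 39S genes, Mrpl16 stood at 3.08, 3.52 and 3.58 in knockdown, against 3.67, 3.75 and 3.57 in control. Knockdown 1 was far below the rest and the groups overlapped slightly (-0.27 ± 0.16 SE, adjusted p = 0.342). Mrpl47 stood at 3.84, 4.19 and 4.19 in knockdown, against 4.04, 4.46 and 4.44 in control (-0.24 ± 0.17 SE, adjusted p = 0.431). All 3 of its pairs were lower in knockdown, by similar amounts. Mrpl12, the stalk protein that is also known to bind mitochondrial RNA polymerase, had -0.04 ± 0.12 SE.

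The 29 Mrps genes, labelled 28S by their symbols, had a median of 0.05, with 19 above 0 and a middle 50% spanning 0.136. Mrps6 stood at 6.99, 6.72 and 6.65 in knockdown, against 6.36, 6.49 and 6.48 in control. The groups did not overlap (0.34 ± 0.13 SE, adjusted p = 0.161), and pair 1 held the largest of 3 positive differences, 0.63. Mrps21 stood at 6.12, 6.03 and 6.06 in knockdown, against 5.68, 5.92 and 5.69 in control (0.30 ± 0.12 SE, adjusted p = 0.168). Its knockdown arrays lay in a narrow band above all control arrays, and both of its probes gave about the same log2 fold change, 0.30 or 0.31.

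The lowest 28S genes were Mrps10 and Mrps27. Mrps10 stood at 4.40, 4.85 and 4.65 in knockdown, against 4.80, 5.00 and 4.82 in control (-0.24 ± 0.15 SE, adjusted p = 0.364). Mrps27 stood at 2.32, 2.20 and 2.20 in knockdown, against 2.29, 2.36 and 2.78 in control (-0.24 ± 0.16 SE, adjusted p = 0.401). Control 3 was high and set most of that difference, and in both genes the groups overlapped. Mrps12, of the decoding site, had 0.07 ± 0.12 SE. The 3 forms of the Mrps18 family had -0.10 ± 0.14 (Mrps18a), 0.003 ± 0.121 (Mrps18b) and 0.01 ± 0.16 SE (Mrps18c).

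Among mitochondrial genes the knockdown arrays lay wholly above the control arrays in 13 of 78 (16.7%) and wholly below in 3 (3.85%), against 17.8% and 14.6% of all genes. The 3 that lay below were Mrpl3, Mrpl10 and Mrpl57, named after their values were seen. Mrpl3 stood at 3.83, 3.90 and 3.94 in knockdown, against 4.09, 4.17 and 4.07 in control (-0.22 ± 0.11 SE, adjusted p = 0.266). Mrpl10 had -0.15 ± 0.11 and Mrpl57 -0.20 ± 0.12 SE. None of the 3 passed the test.

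Probes for the same gene gave similar answers. Tested over all 31804 probes kept, 0 of 252 member probes passed, against 1.75% of all probes, and the smallest adjusted p was 0.140. In 68 genes with more than 1 probe the log2 fold changes of a gene's probes differed by a median of 0.05. The widest range was 0.30, in Rps23rg1 (-0.24 and 0.05), and it was 0.20 to 0.22 in Rps15a, Rps24 and Rpl13. In 13 of the 68 genes the probes had both signs.

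Other genes of translation were counted in 9 lists of 248 entries, of which 243 genes were tested and 2 passed (0.823%, against 7.41% of all genes). The cytosolic ribosomal proteins outside the symbol rule had 0 of 3 past the threshold and a median of 0.07. Those of the mitochondrial ribosome had 0 of 6 and -0.02, and 1 of the 6, Ict1, is also among the members as Mrpl58. Initiation factors had 0 of 35 past the threshold (median -0.01), elongation and termination factors 0 of 14 (0.03) and RNA polymerase I 0 of 11 (-0.03). Mitochondrial translation and assembly factors had 0 of 37 (-0.04) and mitochondrial tRNA synthetases 0 of 20 (-0.06). At an unadjusted p under 0.05 these lists, in the same order, held 0, 0, 3, 1, 1, 6 and 4 genes, against 24.8% of all genes, and all counts come from the limma fit described for the members.

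Genes of ribosome biogenesis, which process ribosomal RNA and assemble the subunits in the nucleolus, stood lower as a list than the ribosomal proteins. Their median log2 fold change was -0.20 over 91 genes, with pair medians of -0.13, -0.18 and -0.29. Of these, 73 of 91 (80.2%) lay below 0, against 47.7% of all genes, and 31 (34.1%) had all knockdown arrays below all control arrays, against 14.6%. The median was -0.18 to -0.22 under the other scalings and 70 to 84 genes lay below 0 when arrays were left out. Only Rrp12 passed, and 20 of 91 genes had an unadjusted p under 0.05, a smaller share than the 24.8% of all genes. Rrp12, which acts in the maturation and export of both subunits in yeast, stood at 3.19, 3.44 and 3.37 in knockdown, against 3.78, 3.96 and 4.17 in control. The groups did not overlap and Rrp12 fell by 0.64 ± 0.14 SE on the log2 scale (adjusted p = 0.0415). The call held in 5 of 18 alternative settings, with adjusted p from 0.0287 to 0.238. It was lost with the replicate block (adjusted p = 0.0619) and without knockdown 1 (0.0737), where Rrs1 and Utp15 passed instead.

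Among 26 tested growth regulators of translation, 1 passed and the median was -0.01. That gene, Mxd4, a partner of Max that competes with Myc at its target sites, stood at -0.42, -0.74 and -0.60 in knockdown, against -2.16, -2.30 and -2.50 in control. The groups lay far apart, and Mxd4 was 3.33-fold higher in knockdown (log2 fold change 1.74 ± 0.14 SE, adjusted p = 0.00471). It passed in 17 of 18 alternative settings, the replicate block included (adjusted p = 0.013), and missed the threshold without replicate 3 of both groups (0.125), where 0 genes in all passed. Larp1 and Myc fall outside the naming rule and are given for their place in this biology, after their values were seen. Larp1, which binds the pyrimidine tract, stood at 5.04, 5.04 and 4.83 in knockdown, against 5.40, 5.54 and 5.43 in control. Its groups did not overlap, and the log2 fold change of -0.49 ± 0.12 SE had adjusted p = 0.0539, just short of the threshold. Larp1 passed only after quantile normalization, with the percentile taken over detected probes and with the filter on all 6 arrays. It missed the threshold in every other alternative setting, the replicate block and all fits with arrays left out included. Myc had a log2 fold change of -0.002 ± 0.236 SE, with knockdown 1 above and the other knockdown arrays below all control arrays.

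**Figure D5:**
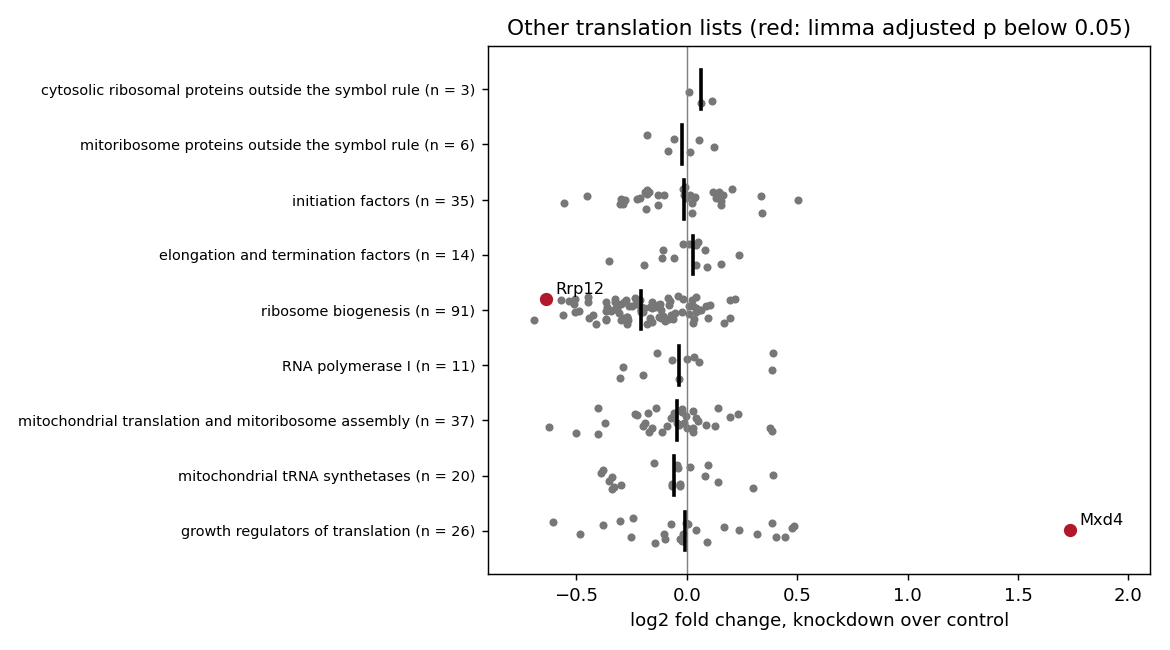
Log2 fold change, knockdown over control, of genes in 9 lists related to translation (points, 1 per gene; vertical bars, medians), with genes past a limma adjusted p of 0.05 in red and named. Rrp12 at -0.64 and Mxd4 at 1.74 are the 2 red points, and the ribosome biogenesis median at -0.20 lies left of 0.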

How the data were processed

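The deposited scanner files give each spot's linear intensity, background-corrected by Agilent Feature Extraction 11.0.1.1, per the file headers. The deposited value table holds log2 values. They differ from log2 of the scanner signal by 1 constant per array (9.05 to 9.753), within 0.01 for 100% of 56593 probes, with column medians of -4.47 to -4.22. It served as an alternative. Genes were not centred in it.

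Outlier spots were left out, spots of a probe were averaged and log2 signal was taken minus each array's 75th percentile. Of 56605 probes, 12 were left out and 32994 (58.3%) were named through a RefSeq accession table of GRCm38.p6, used for names only, since the array design is on mm9. A probe was kept if 3 or more of the 6 arrays had it well above background (31804 probes), with the brightest probe on average representing each of 14151 genes. Groups were compared with limma 3.58.1 in R 4.3.3 (lmFit, eBayes, two-sided, no block) and Benjamini-Hochberg adjustment over all genes. The scripts were tested on simulated data. Python 3.11.15, pandas 2.3.3 and matplotlib 3.10.9 did the rest.

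All 6 arrays lay on 1 slide with 1 scan date. Pairs come from dates in the titles, and the deviations of paired arrays from their group means correlated at -0.02, 0.55 and -0.20. Alternatives were normexp background correction (offset 50), for which the median signal was used because no mean signal column was read, quantile and median scaling, other filters, probe averaging, the replicate block and leaving out arrays. The number of arrays limits the precision. Named genes were the 2 highest and 2 lowest of each subunit, fixed stalk, assembly and signalling members, paralog pairs, members past the threshold and up to 4 such genes per direction in other lists. The members, lists and rule were chosen with earlier results of these data known. Promoter sequences are RefSeq's. Some single-gene results are not reported here.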

Additional observations from a re-analysis of the deposited data

How the results depend on the processing

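No cytosolic and no mitochondrial member passed the threshold under any of the 18 alternatives, and the cytosolic median stayed between -0.01 (without replicate 3 of both groups) and 0.17 (without knockdown 1). The mitochondrial median stayed between 0.002 (without control 1) and 0.0923 (without replicate 3 of both groups). The count over all genes, 1048 in the main setting, was 678 with median scaling, 357 with no filter and 558 with the replicate block. Leaving out 1 array gave 14 (without control 1) to 840 (without knockdown 1). Leaving out replicate 1, 2 or 3 of both groups gave 343, 81 and 0, with 2796 genes at an unadjusted p under 0.05 in the last, where fewer arrays entered the limma fit. Ggct kept its direction throughout, at -2.96 without replicate 3 of both groups (adjusted p = 0.125). The replicate block changed no member's call. With 3 arrays a group, a small shift shared by a set and the scaling of arrays cannot be told apart. The standard error of Rpl37, on its dim probe, was 0.186, against a median of 0.137 for cytosolic genes.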
